A study of Mus musculus with 4 samples.

Results

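miR-210 is a microRNA (miRNA), a short RNA that guides Argonaute proteins to matching messenger RNAs and lowers their output. Its 2 mature arms were taken from a table of mature miRNA counts. miR-210-3p was chosen by its identifier, MIMAT0000658, and miR-210-5p (MIMAT0017052) was found as the entry on the same strand that starts within 60 bases of it. They are 2 of the 2110 rows of the table, and both were among the 536 rows that held enough counts to be tested.

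The libraries are small RNA of extracellular vesicles, small membrane-bound bodies shed by cells, with RNA among their contents. The vesicles came from C2C12, an established mouse myoblast line that can be grown into muscle fibres in culture. All 4 libraries carry the genotype label WT, and the cells grew in medium with 10% fetal bovine serum, which holds vesicles of its own. The 2 damaged libraries came from cells given hydrogen peroxide, an oxidant, and the 2 WT libraries carry no agent in their labels beyond the group name. The labels give neither the peroxide dose nor the time of exposure. The series asks how the miRNAs carried by vesicles differ between healthy and damaged muscle cells. The model is 1 cell line in culture, not muscle tissue, and the labels do not say that the 2 replicates of a group came from separate cultures. The p-values therefore measure the spread between these libraries, which may be technical.

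miR-210 is the miRNA most widely known for its response to low oxygen. The hypoxia-inducible factor HIF, a transcription factor that is degraded when oxygen is plentiful, binds near the gene and raises its transcription. The 3p arm is the guide strand in most tissues. Its known targets include Iscu, a scaffold for the assembly of iron-sulfur clusters in mitochondria, and Efna3, a membrane ligand that restrains the growth of vessels, and its activity is known to lower mitochondrial respiration. Hydrogen peroxide is a different stimulus from low oxygen, and oxygen was not a factor of the design.

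The arms are shown here because the results turn on the contrast between them. Each is written 5′ to 3′ with its seed, bases 2 to 8, in capitals. The seed is the stretch that pairs first with a target.
miR-210-3p: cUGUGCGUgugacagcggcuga
miR-210-5p: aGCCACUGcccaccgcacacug
Both sequences are RefSeq entries on GRCm38.p6, the assembly also called mm10. No other of the 1679 mature names searched had either seed, and the closest other mature sequence to either arm was 7 edits away. Neither arm thus has a nearly identical copy among the entries searched. miR-210-3p holds 14 G or C bases in 22 (63.6%) and miR-210-5p holds 15 in 22 (68.2%), against a median of 47.6% over the tested rows with a sequence.

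The hairpin from which both arms are cut is shown to place them, with the arms in capitals, 5p first.
Mir210 hairpin: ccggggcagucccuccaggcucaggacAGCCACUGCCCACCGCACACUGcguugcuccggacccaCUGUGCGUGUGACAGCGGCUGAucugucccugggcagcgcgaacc
It is 110 bases long with 69.1% G or C and lies on the minus strand at chr7:141221384-141221493 (mm10). The 3p arm covers chr7:141221407-141221428 and the 5p arm chr7:141221445-141221466. In the GENCODE vM21 annotation the hairpin lay in no other gene, and thus in no exon, intron or UTR of one. The nearest genes were Rassf7, 2725 bases away on the side of lower coordinates, and Phrf1, 7290 bases away on the other side. RNAfold gave the hairpin a minimum free energy of -48 kcal/mol, and 16 of the 22 bases of the 3p arm paired with bases of the 5p arm, 6 of them in the 3p seed. No entry on the opposite strand overlapped either arm, which bears on counts made without strand. Within 1000000 bases of miR-210 the table held 4 other rows, the arms of miR-7063 and miR-3104, and these had 1 count in all over the 4 libraries.

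Library totals ran from 4577668 to 7638663 counts, and 692 to 746 rows per library had at least 1 count. The labelled source was checked against muscle miRNAs (miR-1a, miR-133a, miR-133b and miR-206), which held 29.5% and 33.4% of the counts in the WT libraries and 35.5% and 38.1% in the damaged ones. Of their 5 tested rows 3 rose by edgeR (miR-133b-3p and both copies of miR-133a-3p, whose reads cannot be told apart), where edgeR called 4.10% of all tested rows higher and 5.41% lower. Their adjusted p was 0.0708 to 0.160 when WT replicate 1, WT replicate 2 or damaged replicate 1 was dropped. Blood cell miRNAs held 0.148% to 0.172% of the counts in any library, and epithelial ones at most 0.00122%. Most of the blood share was miR-451a, with 7603 and 11346 counts in WT and 10291 and 10423 in damaged libraries. This is more than miR-210-3p had in any library. Whether RNA of the serum adds to this row or to those of miR-210 was not tested. Rows that overlap an entry on the opposite strand and were listed at 0 in every library say nothing of the miRNA. Among the marker rows these were the Mir1a-2 copy of miR-1a-3p, the liver marker miR-122-5p, both endothelial miR-126a arms, 8 of 11 neural rows and 2 blood rows (miR-486-5p and miR-142a-3p). Of the other 3 neural rows, 2 were also at 0 and the third, a miR-124a-3p row, had 1 count in all. Entries that may be pieces of longer RNAs (suspected fragments) held 0.177% and 0.277% of the counts in WT and 0.641% and 0.687% in damaged libraries. Of the 11 rows of that list 10 were tested and edgeR called 2 higher and 1 lower, beside the 4.10% and 5.41% of all tested rows. None of these 3 passed when WT replicate 1, WT replicate 2 or damaged replicate 1 was dropped. The list's median log2 fold change was 1.74, beside 0.02 over all tested rows. The part of these shifts in the miR-210 results was not tested.

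miR-210-3p was lower in vesicles of peroxide-treated cells. Its row held 1033 and 1664 counts in the WT libraries and 882 and 882 in the damaged ones. Scaled to the library's depth (CPM, with TMM factors), these were 229 and 219 CPM in WT and 129 and 117 CPM in damaged libraries. Both damaged libraries lay below both WT libraries, with a wide gap between the groups and little spread within them. Groups that do not overlap were common here: the same held in either direction for 59.9% of tested rows, and in the lower direction for 30.8%. The group means were 224 ± 7.24 CPM in WT and 123 ± 8.03 CPM in damaged libraries (SD, n = 2). The log2 fold change was -0.86 ± 0.16 (SE; 95% interval -1.26 to -0.46), a level 1.82-fold higher in WT, and the edgeR quasi-likelihood test gave an adjusted p of 0.0335.

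The difference in miR-210-3p was also larger than the counting error of independent reads. As a share of all counts of a library, without scaling factors, the arm held 0.0226% (95% exact Clopper-Pearson interval 0.0212% to 0.0240%) in WT replicate 1. In WT replicate 2 the share was 0.0218% (0.0207% to 0.0229%). The damaged libraries had 0.0128% (0.0120% to 0.0137%) in replicate 1 and 0.0120% (0.0112% to 0.0128%) in replicate 2. The intervals of the replicates of a group overlap, and those of the 2 groups do not. These intervals cover counting error only and treat each read as an independent molecule. They are too narrow where reads are not independent molecules. In vesicle RNA, fewer vesicles of one kind and less miR-210 per vesicle cannot be told apart.

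**Figure D1:**
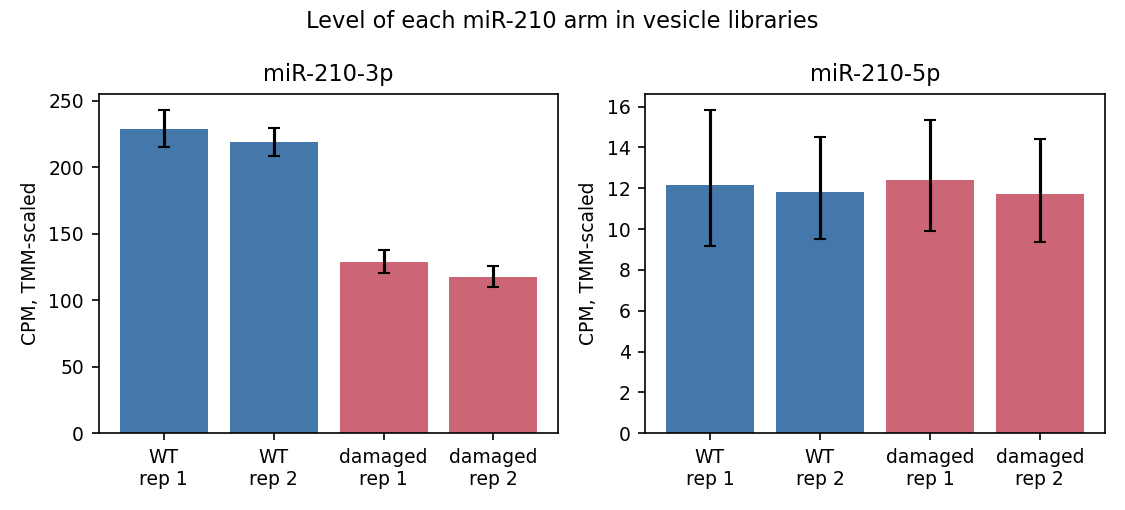
Depth-scaled counts (CPM, TMM) of miR-210-3p and miR-210-5p in each of the 4 libraries, with 1 bar per library and lines for the exact 95% counting interval. The 3p bars reach 219 to 229 CPM in WT and 117 to 129 CPM in damaged libraries, and the 5p bars of the groups overlap at 11.7 to 12.4 CPM.

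The test of miR-210-3p rested on few libraries. In edgeR the log2 fold change was -0.83 ± 0.19 (SE) without WT replicate 1 and -0.87 ± 0.22 without WT replicate 2. It was -0.92 ± 0.16 without damaged replicate 1 and -0.80 ± 0.28 without damaged replicate 2. The call was lost in all but the last of these fits, the one with the smallest change and the largest SE. Losing the call thus did not follow the size and SE of the change, and does not rank the libraries. With the same libraries left out, DESeq2 gave adjusted p-values of 0.0446, 0.0543, 0.0107 and 0.0403 in the order above.

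Among all rows, 9.51% of tested rows passed in edgeR, of which those higher in damaged libraries made 4.10% and those lower 5.41% of tested rows. miR-210-3p was thus 1 of 29 rows called lower, and 36 rows had a smaller p. Its fold change was not among the extremes: 102 tested rows (19.0%) had a lower log2 fold change, as did 23 of the 29 rows called lower. The median log2 fold change of all tested rows was 0.02.

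**Figure D2:**
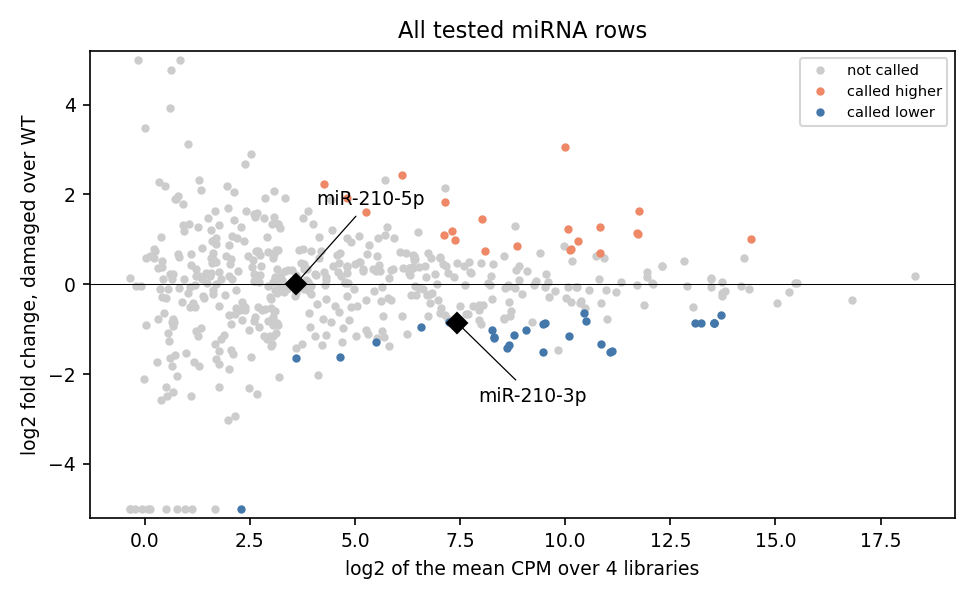
Log2 fold change (damaged over WT) against log2 of the mean depth-scaled count (CPM) for the 536 tested rows, with 14 rows beyond the limits drawn at -5 or 5. miR-210-3p sits at -0.86 among the rows called lower, and miR-210-5p at 0.01 near the line of no change.

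In abundance, miR-210-3p stood in the upper part of the detected miRNAs. Within a library its row ranked 119 and 121 by counts in WT and 146 and 148 in damaged libraries. By mean CPM over the 4 libraries it ranked 130 of 536 at 173 CPM for a mature length of 22 bases. Next above it stood miR-92a-3p (Mir92-2 row, 21 bases, 181 CPM), miR-192-5p (21 bases, 192 CPM) and let-7j (24 bases, 197 CPM). Next below it stood miR-500-3p (22 bases, 172 CPM), miR-132-5p (22 bases, 167 CPM) and miR-425-5p (23 bases, 164 CPM). The lengths differ by few bases, but ligation and amplification differ between miRNAs, so the order of these neighbours is that of reads. In WT libraries miR-210-3p (224 ± 7.24 CPM) and miR-92a-3p of the Mir92-2 row (212 ± 9.55 CPM) lay within 2 SD of each other. The Mir92-2 row alone does not give the level of miR-92a-3p. The Mir92-1 row of the same mature miRNA held 2557 ± 412 CPM in WT libraries. In damaged libraries miR-210-3p was the lowest of the 7 at 123 ± 8.03 CPM. Since the 7 rows were chosen for like means over the 4 libraries, this rank restates its fold change. Of the 6 neighbours, miR-132-5p, a miRNA best known from neurons, passed the test and rose from 111 ± 21.7 to 222 ± 2.33 CPM (SD, n = 2; edgeR adjusted p = 0.0385). It did not pass in edgeR without WT replicate 1 (adjusted p = 0.203), WT replicate 2 (0.0938) or damaged replicate 1 (0.129), nor with the GC correction (0.0592).

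The other arm of the hairpin had far fewer reads, and its difference did not pass the test. miR-210-5p, which is usually the passenger strand that is discarded after the hairpin is cut, had 55 and 90 counts in WT and 85 and 88 in damaged libraries. Its depth-scaled counts were 12.2 and 11.8 CPM in WT and 12.4 and 11.7 CPM in damaged libraries. The groups overlap, with the highest and the lowest value both in damaged libraries. The means were 12.0 ± 0.255 and 12.1 ± 0.492 CPM (SD, n = 2), and the log2 fold change was 0.01 ± 0.33 (SE), with an edgeR adjusted p of 0.991. The 95% interval of -0.82 to 0.84 spans from 0.565-fold to 1.79-fold, so a change in either direction within that span is compatible with these counts. miR-210-5p ranked 285 to 296 within the libraries.

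The balance between the arms can be read within each library, where depth and scaling factors cancel. miR-210-5p made up 5.06% of the 1088 hairpin counts in WT replicate 1 (95% exact Clopper-Pearson interval 3.83% to 6.53%) and 5.13% of 1754 in WT replicate 2 (4.15% to 6.27%). In damaged libraries it made up 8.79% of 967 (7.08% to 10.8%) and 9.07% of 970 (7.34% to 11.1%). Both damaged libraries had a higher 5p share than both WT libraries, and the intervals of the groups, which cover counting error only, do not overlap. Groups whose 5p shares do not overlap were found in 51.0% of the 151 hairpins with both arms tested, and in 23.8% with the higher shares in damaged libraries.

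The mean 5p share was 5.09% ± 0.0537 in WT and 8.93% ± 0.199 in damaged libraries (SD, n = 2), a difference of 3.84 percentage points. The exact two-sided permutation test over libraries gave p = 0.333, the smallest that 2 against 2 can give. Put as a ratio, there were 18.8 and 18.5 reads of the 3p arm per read of the 5p arm in WT, and 10.4 and 10.0 in damaged libraries. Summed over both arms, the hairpin fell from 236 ± 7.49 CPM to 135 ± 8.53 CPM (SD, n = 2) as a description, and since the 3p arm makes up nearly all of it, the sum follows that arm.

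That the 3p arm passed the test and the 5p arm did not is no test of a difference between them. The difference itself was tested across all hairpins with both arms measured, with limma's diffSplice on voom-weighted log2 counts. The 5p arm's log2 fold change exceeded that of the 3p arm by 0.87 ± 0.44 (SE; 95% interval -0.06 to 1.80). The unadjusted p was 0.0643, and the adjusted p of 0.303 over 151 hairpins did not pass. A difference between the arms was thus not shown by this test, and the interval reaches from just under 0 to 1.80 on the log2 scale. The test treats the arms as separate rows and does not use that both were counted in each library.

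Unequal fold changes of the arms were common in the table, though not all were well measured. Of the 151 hairpins, 12 were called for arm use (7.95%), 31 had a smaller p than miR-210, and 72 (47.7%) had a larger absolute difference between arms. The median absolute difference was 0.81 on the log2 scale, close to that of miR-210. Some large differences rested on a scarce arm and were imprecise, as in Mir7070 (-7.91 ± 3.48 SE, 1.17 CPM in the scarcer arm). Others were not, as in Mir34b (-2.72 ± 0.42 SE, 27.9 CPM). The 47.7% with a larger difference thus includes poorly measured hairpins. A higher fold change in the 5p arm was found for 64 of the 151 hairpins. By edgeR, exactly 1 arm was called in 32 hairpins, and in none were both. In 29 of the 32 it was the more abundant arm, as with miR-210.

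**Figure D3:**
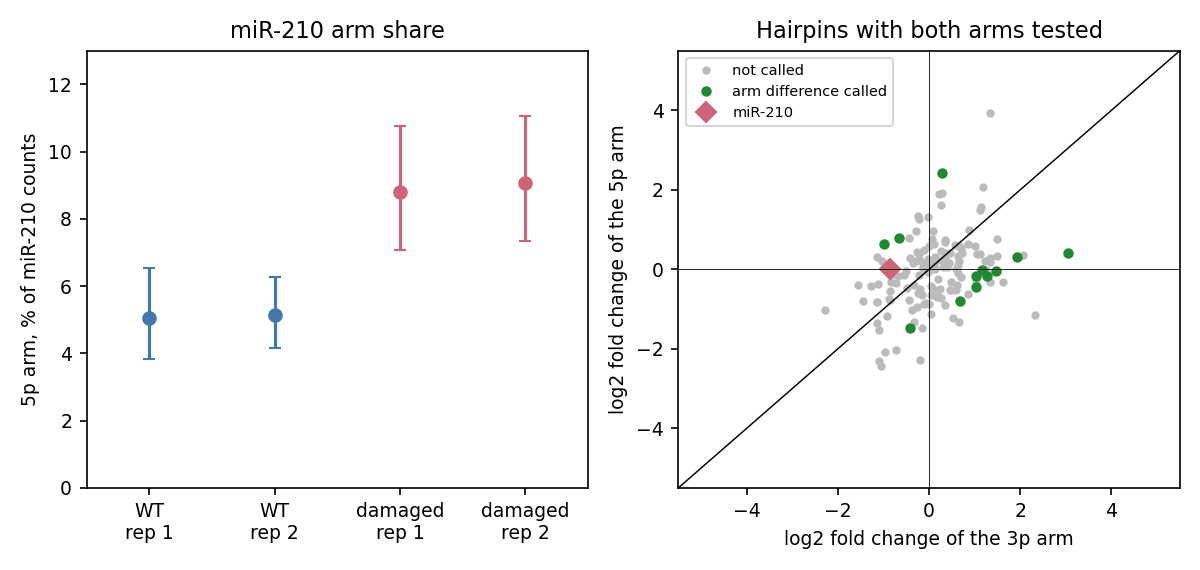
Left, the 5p share of miR-210 counts (%) in each library with its exact 95% interval, at 5.06% and 5.13% in WT and 8.79% and 9.07% in damaged libraries. Right, log2 fold change (damaged over WT) of the 5p arm against that of the 3p arm for 151 hairpins (3 of them beyond the limits and not drawn), where the diagonal marks equal change, green marks the 12 hairpins called for arm use, and miR-210 lies above the diagonal at -0.86 for 3p and 0.01 for 5p.

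Other miRNAs described as raised by low oxygen in other cells had smaller fold changes, and no row of theirs passed edgeR's test. The list held 14 names in 19 rows: miR-21a, both miR-23, both miR-26 and both miR-27 miRNAs, miR-24, miR-103, miR-107 and the miR-181 family. Of its 17 tested rows edgeR called 0, against 9.51% of all tested rows. An unadjusted edgeR p under 0.05 was found for 5 of the 17, beside 165 of all 536 tested rows. DESeq2 called 3 of them higher and 1 lower, where it called 19.8% of all tested rows, 8.21% higher and 11.6% lower. The log2 fold change was positive in 11 rows and negative in 6, with a median of 0.05, beside a median of 0.02 over all tested rows. These rows are not independent, since miR-26a-5p, miR-103-3p, miR-181a-5p and miR-181b-5p have 2 rows each. The split and the median thus count some miRNAs more than once. The log2 fold changes of the 17 tested rows ran from -0.42 to 0.58, so that each lay above the -0.86 of miR-210-3p. The other 2 rows, both of miR-24-3p, were listed at 0 in every library and overlap an entry on the opposite strand.

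The 3 most abundant rows of that list show the spread. miR-21a-5p, one of the most abundant miRNAs of many cell types, averaged 128923 ± 14027 CPM in WT against 100873 ± 28544 CPM in damaged libraries (SD, n = 2; log2 fold change -0.35, edgeR adjusted p = 0.331). Its groups overlap. miR-27b-3p had 38198 ± 6655 and 28545 ± 2.66 CPM (log2 fold change -0.42, edgeR adjusted p = 0.124). miR-23a-3p, encoded in 1 cluster with miR-27a and miR-24, had 15725 ± 1503 and 23443 ± 2618 CPM (log2 fold change 0.58, edgeR adjusted p = 0.0531). The latter pair had values on opposite sides of 0, and neither passed in edgeR, while DESeq2 called miR-27b-3p lower (adjusted p = 0.0477) and miR-23a-3p higher (adjusted p = 0.00557). Counting DESeq2, they passed in 2 and 5 of 16 other settings.

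miRNAs described as acting on the HIF pathway itself lay mostly on the lower side. This list holds 11 miRNAs known to act on Hif1a, the oxygen-regulated subunit, on Arnt, its partner, on Hif1an, which blocks its activity, or on Vhl and Cul2, which mark it for degradation. Of its 13 rows 11 were tested, and by edgeR 1 fell and 10 did not pass, with 2 positive and 9 negative log2 fold changes. The median was -0.71, beside 0.02 over all tested rows, of which edgeR called 5.41% lower. These 11 rows are not independent, since miR-199a-5p and miR-92a-3p have 2 rows each. In addition, miR-17-5p, miR-18a-5p, miR-20a-5p and miR-92a-3p (Mir92-1 row) come from 1 polycistron. The split and the median thus count related rows more than once. DESeq2 called 4 of the 11 lower and 0 higher, where it called 11.6% of all tested rows lower. miR-20b-5p and miR-429-3p had too few counts to be tested, and miR-107-3p is in both lists.

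The member that fell was miR-322-5p, the mouse counterpart of miR-424, which is described as acting on Cul2. Its row held 12259 and 19739 counts in WT and 8300 and 6746 in damaged libraries. Both damaged libraries lay below both WT libraries. WT libraries averaged 2653 ± 86.7 CPM and damaged ones 1054 ± 222 CPM (SD, n = 2), with a log2 fold change of -1.33 (SE 0.18) and an edgeR adjusted p of 0.0180. The adjusted p was 0.201 without WT replicate 1, 0.0815 without WT replicate 2 and 0.0708 without damaged replicate 1, and no row of the list was called then.

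The other abundant rows of that list did not pass in edgeR. miR-92a-3p (Mir92-1 row), of the miR-17 polycistron, had 2557 ± 412 and 1488 ± 246 CPM (SD, n = 2; log2 fold change -0.78, edgeR adjusted p = 0.0531). It passed in 8 of 16 other settings, DESeq2 among them (adjusted p = 0.000831). miR-31-5p, described as acting on Hif1an, had 1273 ± 15.9 and 1215 ± 204 CPM (log2 fold change -0.07, edgeR adjusted p = 0.841).

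**Figure D4:**
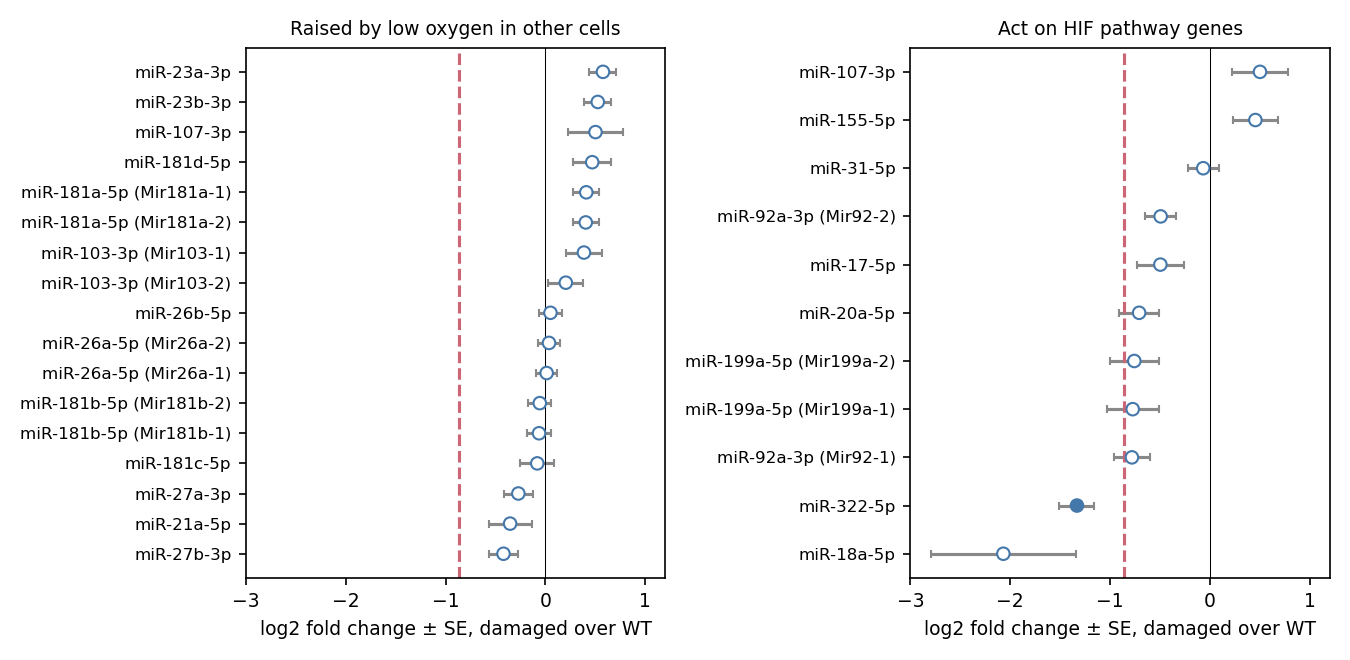
Log2 fold change (damaged over WT) with SE for the 17 tested rows of miRNAs described as raised by low oxygen (left) and the 11 of miRNAs described as acting on the HIF pathway (right), with filled points for an adjusted p under 0.05 and a dashed line at miR-210-3p. The first list runs from -0.42 to 0.58 with no filled point, and miR-322-5p at -1.33 is the filled point of the second.

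The rows whose pattern over the 4 libraries was most like that of miR-210-3p were found by the root mean square difference of log2 CPM centred on each row's mean. The 5 closest were miR-467e-5p (0.0625), miR-5099-3p (0.0723), miR-93-5p (0.0723), miR-21a-3p (0.0806) and miR-214-5p (0.0844). With 4 libraries in 2 groups, any row that is lower by a like amount in both damaged libraries comes close, and these values are a description. The 5 rows lie on chromosomes 2, 12, 5, 11 and 1, none of them that of miR-210.

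Of these 5 rows, 3 passed the test and fell from the WT to the damaged libraries. miR-467e-5p, of a repeat cluster in the gene Sfmbt2 whose copies are similar to each other, went from 125 and 125 CPM to 69.4 and 59.4 CPM (edgeR adjusted p = 0.0360). miR-93-5p, of the miR-17 family, went from 1997 and 1694 CPM to 1131 and 972 CPM (edgeR adjusted p = 0.0335). miR-5099-3p, one of the suspected fragments, went from 201 and 188 CPM to 107 and 112 CPM (edgeR adjusted p = 0.0356). As with miR-210-3p, none of the 3 passed in edgeR once WT replicate 1, WT replicate 2 or damaged replicate 1 was dropped, where adjusted p-values were 0.0852 to 0.212. miR-21a-3p (edgeR adjusted p = 0.0784) and miR-214-5p (edgeR adjusted p = 0.0531) did not pass. In other settings miR-21a-3p passed in 1 of 16 and miR-214-5p in 10 of 16, DESeq2 among the latter (adjusted p = 0.00156). miR-210-5p stood at a distance of 0.434 from its partner arm, and 159 tested rows were closer.

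Because miR-210 is rich in G and C, rows of like composition were compared. Of the tested rows, 73 others had a GC content within 5 percentage points of that of miR-210-3p. Their median log2 fold change was 0.01, edgeR called 2 higher and 2 lower, and 15 (20.5%) had a lower value than miR-210-3p. Over all tested rows 4.10% were called higher and 5.41% lower, and 19.0% had a lower value. With a correction for GC content fitted per library, miR-210-3p had a log2 fold change of -0.92 (edgeR adjusted p = 0.0485).

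The 3p arm kept its call under each of 12 other settings of scaling, filter, test, design and GC content on the 4 libraries. Its log2 fold change ran from -0.93 to -0.82, with adjusted p-values of 0.000455 to 0.0485. The 5p arm passed under none of them, with values of -0.12 to 0.04.

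**Figure D5:**
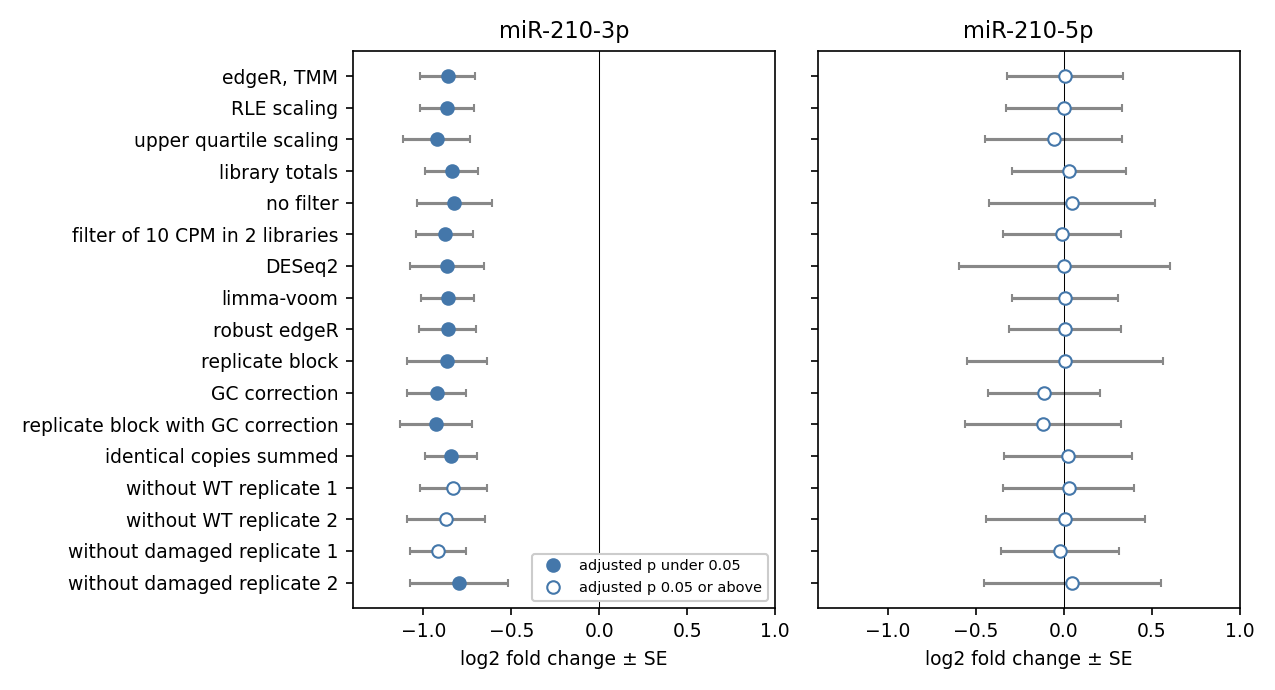
Log2 fold change with SE of miR-210-3p and miR-210-5p under each setting, with filled points for an adjusted p under 0.05. The 3p values lie between -0.93 and -0.80 and lose the call in 3 of the 4 fits that leave out a library, and the 5p values lie between -0.12 and 0.05.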

How the data were processed

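Small RNA of vesicles was sequenced in 4 libraries, 2 per group. The authors deposited 1 table of raw read counts per mature miRNA row. Per the submitters' processing notes, the tools were FastQC, BWA and featureCounts, with build mm10. Reads on miRNA features were counted by featureCounts 2.0.1 with no option for strand, multi-mapping or overlapping features, per the file headers. For BWA's version, trimming and the miRBase release, nothing is stated: not given in the sources used here.

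Rows were matched by position to RefSeq mature miRNAs of GRCm38.p6 (1734 of 2110 rows), and 358 others were named from hairpins of GENCODE vM21. Groups were compared by edgeR's quasi-likelihood test (edgeR 4.0.16, R 4.3.3) on TMM-scaled counts without covariates, after filterByExpr (minimum count 10), with Benjamini-Hochberg adjustment at 0.05 over the 536 tested rows, which held 99.98% of the counts. CPM values are TMM-scaled. Rose and fell mean an adjusted p under 0.05. The SE comes from the log2 fold change and the F statistic. DESeq2 1.42.0 and limma-voom (limma 3.58.1) were alternatives. The arm test and the DESeq2 fits that leave out a library were chosen after seeing the data. RNAfold 2.7.2 folded the hairpin. The fits were tested on simulated data.

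The members and lists were chosen with earlier results of these data known. From each list the text names every row that passed and the 3 of highest mean CPM, and beside miR-210 the 5 rows nearest in pattern and the 3 next above and below in level. Over the tested rows, the deviations of same-numbered libraries from their group means had a correlation of 0.00316. With 2 libraries per group, this cannot decide whether same-numbered libraries shared a culture or a preparation. A count of 0 allows up to 3 counts.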

Additional observations from a re-analysis of the deposited data

How the results depend on the processing

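For miR-210-3p, all 12 other settings kept the direction and the call. With a library left out, edgeR gave log2 fold changes of -0.92 to -0.80 and DESeq2 -0.91 to -0.79, where the lone library of a group is assumed to vary like the others. DESeq2 lost the call only without WT replicate 2 (-0.90, adjusted p = 0.0543). For miR-210-5p, which passed nowhere, the value near 0 changed sign with upper quartile scaling (-0.058), the 10 CPM filter (-0.010), the GC correction (-0.11) and the replicate block with GC correction (-0.12), and ran from -0.022 to 0.048 in edgeR with a library left out. In DESeq2 it was -0.032, -0.016 and -0.012 without WT replicate 1, WT replicate 2 and damaged replicate 1, and 0.055 without damaged replicate 2. The cause was not tested. The 5p share of the hairpin differed by 3.70 to 3.98 points, and the arm difference was 0.84 to 0.89, with a library left out.

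The settings named below tested 536 rows, except 1001 with no filter and 318 with the 10 CPM filter. Of these, 17 were in the hypoxia list. The HIF list had 11, except 13 with no filter and 10 with the 10 CPM filter. The count of 51 rows called became 77 with upper quartile scaling, 131 with no filter and 91 with the 10 CPM filter. It was 106 with DESeq2, 79 with limma-voom and 33 with the GC correction. With a library left out it was 0 to 113 in edgeR (0 without WT replicate 1 or 2, 1 without damaged replicate 1, 113 without damaged replicate 2) and 53 to 77 in DESeq2. In the hypoxia list, 4 rows were called with no filter, 2 with the 10 CPM filter, 4 with DESeq2, 2 with limma-voom and 0 to 2 with a library left out. In the HIF list, 2 were called with upper quartile scaling, 5 with no filter, 3 with the 10 CPM filter, 4 with DESeq2, 2 with limma-voom and 0 to 3 with a library left out. miR-31-5p ran from -0.24 without damaged replicate 1 to 0.095 without damaged replicate 2, a change of sign. The labels do not say that the replicate numbers pair the libraries. With the replicate block, miR-210-3p had -0.86 (adjusted p = 0.00124), 127 rows were called, 6 of them in the hypoxia list and 5 in the HIF list, and with the replicate block and GC correction 2 in the HIF list.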
